A study of Homo sapiens with 6 samples.

Results

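The genes of cholesterol and fatty acid synthesis, with their regulators and the sterol efflux genes, were followed in LX-2 cells. The set holds 37 genes chosen by role, among 60605 genes with an Ensembl identifier in the deposited table. The choice was made with earlier results of these data known. LX-2 is an established, immortalised line of human hepatic stellate cells, the pericytes of the liver sinusoid. The cells were cultured for 24 h in medium conditioned by HCT116 colorectal carcinoma cells that carried an empty vector (Vector-CM, n = 3) or overexpressed FGFBP1, which is secreted and releases fibroblast growth factors from the matrix (FGFBP1-CM, n = 3). The HCT116 lines were made with lentivirus and selected with puromycin, so both media came from infected tumor cells. FGFBP1 was introduced into the tumor cells and not into LX-2, and the libraries therefore hold no check of the overexpression. The labels do not say whether the 3 libraries of a group came from separate cultures, and p-values measure the spread between these libraries, which may be technical.

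Cells make cholesterol from acetyl-CoA through the mevalonate pathway to squalene, and then through a long series of ring modifications. Transcription of these enzymes is driven by the sterol regulatory element-binding proteins (SREBPs), which SCAP carries from the endoplasmic reticulum to the Golgi when sterols are scarce and which the INSIG proteins hold back when sterols are plentiful. SREBP1 acts mainly on fatty acid synthesis and SREBP2 mainly on sterol synthesis, while the liver X receptors (LXRs) respond to oxysterols and turn on cholesterol efflux. In the liver, stellate cells store retinyl esters in lipid droplets and lose these droplets when they are activated, a state that LX-2 cells largely resemble in culture.

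The promoters of HMGCS1, MSMO1, INSIG1, SREBF2 and SCD are shown because HMGCS1, MSMO1, INSIG1 and SCD had the lowest log2 fold changes of their role groups and SREBF2 held a sterol regulatory element. Sequences are from RefSeq (GRCh38.p14), 5′ to 3′ on the strand of the gene, and each ends before the start site in both RefSeq and GENCODE release 29. Capitals mark a CCAAT box, read CCAAT or, on the opposite strand, ATTGG, the element bound by the factor NF-Y that works beside SREBPs. In SREBF2 they also mark the sterol regulatory element core TCACNCCAC.
HMGCS1 (chr5:43313513-43313662, minus strand): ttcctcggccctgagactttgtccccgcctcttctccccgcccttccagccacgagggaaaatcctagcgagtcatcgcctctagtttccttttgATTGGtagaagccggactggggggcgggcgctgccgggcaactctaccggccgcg
MSMO1 (chr4:165327419-165327622, plus strand): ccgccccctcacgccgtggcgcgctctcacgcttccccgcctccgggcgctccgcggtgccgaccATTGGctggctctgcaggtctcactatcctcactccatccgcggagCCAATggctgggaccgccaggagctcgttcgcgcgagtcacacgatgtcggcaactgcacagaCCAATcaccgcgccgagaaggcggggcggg
INSIG1 (chr7:155297628-155297775, plus strand): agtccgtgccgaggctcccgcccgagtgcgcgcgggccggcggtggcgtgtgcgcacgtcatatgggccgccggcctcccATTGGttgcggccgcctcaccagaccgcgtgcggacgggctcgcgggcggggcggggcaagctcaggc
SREBF2 (chr22:41832855-41833078, plus strand): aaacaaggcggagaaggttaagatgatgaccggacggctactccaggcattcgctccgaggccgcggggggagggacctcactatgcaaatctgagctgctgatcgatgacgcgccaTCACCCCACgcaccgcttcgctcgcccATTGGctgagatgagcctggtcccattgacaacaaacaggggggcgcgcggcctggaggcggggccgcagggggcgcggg
SCD (chr10:100346983-100347123, plus strand): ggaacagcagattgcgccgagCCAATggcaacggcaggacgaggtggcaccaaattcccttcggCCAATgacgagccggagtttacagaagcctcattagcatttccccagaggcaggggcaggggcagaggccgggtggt

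RefSeq promoters were matched for 32 of the 37 genes, all but ACAT2, FDFT1, SQLE, FASN and ABCG1. Within the 250 bases before the RefSeq start, a CCAAT box on either strand was present in 18 of the 32 promoters (56.2%), against 33.0% of 27305 promoters. Among the 15 matched sterol synthesis enzymes 12 held a CCAAT box (80%). The GC box GGGCGG was present in 29 of the 32 promoters (90.6%) and in 42.3% of all promoters. An exact match to the sterol regulatory element core TCACNCCAC was found in SREBF2 alone among the 32, and in 0.875% of all promoters. Other spellings of the element were not searched, so the other promoters may hold one. The E box CACGTG occurred in SC5D, INSIG1, SCAP and ABCA1 (6.49% of all promoters), and the LXR element, a direct repeat of AGGTCA with 4 bases between the copies, in none of the 32 and in 0.0146% of all promoters. For 8 of the 32 genes (IDI1, DHCR7, SCAP, ACLY, FADS1, FADS2, LPIN1 and NR1H2) the RefSeq start lay over 1000 bases from the outermost GENCODE start, and which start these cells use is not known here. These matches describe letters in a window and say nothing of binding in these cells.

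Total counts ranged from 14003780 to 18508113 per library, and a count of 0 allows up to 3 counts, or 0.158 to 0.217 CPM (counts scaled to the TMM-adjusted library size), counting error only. FGFBP1-CM replicate 1 stood apart from the other libraries, at 39.6 on the first principal component (42.7% of the variance) against -19.1 to 5.07 for the other 5, so counts over the gene set are also given without it. Stellate cell markers differed widely in level, with VIM at 1966 to 2678 CPM and COL1A1 at 116 to 169 CPM. ACTA2 was low at 3.73 to 5.46 CPM, as were DCN (2.20 to 4.22), LUM (1.16 to 2.32) and THY1 (0.95 to 1.28). DES was near the floor and LRAT had no count in any library. Of 11 stellate markers tested, 10 had a log2 fold change below 0 in FGFBP1-CM, against 49.3% of all genes tested. At an unadjusted edgeR p under 0.05, 4 of the 11 were lower, against 10.7% of all genes tested. Of the 11, TIMP1 passed the adjusted threshold, which 0.12% of all genes tested did. The summed level was 3557 to 3823 CPM in Vector-CM and 2763 to 3295 CPM in FGFBP1-CM, most of it from VIM. Hepatocyte transcripts were present at low levels, summing to 41.5 to 44.5 CPM in Vector-CM and 18.3 to 28.1 CPM in FGFBP1-CM. Most of this was SERPINA1 (log2 fold change -0.53). All 6 tested hepatocyte transcripts were lower (49.3% of all genes tested) and 4 passed the threshold (0.12%). FGA, APOB, ALB, AFP and TF, at -3.82 to -1.86, ranked 1 to 5 for the lowest log2 fold change of all genes tested, on 0 to 65 counts per library. Colorectal epithelial markers summed to 4.92 to 6.47 CPM and 4.70 to 5.21 CPM. Most of this was CDH17, with 38 to 68 counts per library. KRT19 (6 to 19 counts), EPCAM (4 to 12) and CDH1 (4 to 7) had counts in every library, while CEACAM5 and TFF3 were at 0 counts throughout. Whether any of these shifts had a part in the results was not tested, and in bulk RNA fewer cells of a type cannot be told apart from less RNA per cell.

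All 37 genes had enough counts to be tested, with 27 to 16485 counts per gene and library. Because they were chosen with earlier results of these data known, their shares beside those of all genes are descriptions. No gene of the set passed an adjusted p of 0.05 in the edgeR quasi-likelihood test, where 0.12% of the 16707 genes tested did (0.0658% lower and 0.0539% higher). At an unadjusted p under 0.05, 17 of the 37 genes (45.9%) were lower in FGFBP1-CM, against 10.7% of all genes tested, and 1 gene (PMVK) was higher, against 11.1%. The groups did not overlap and FGFBP1-CM was lower in 17 of the 37 genes (45.9%; 13.2% of all genes tested), and higher in 2, PMVK and NR1H3 (12.8%). An adjusted p under 0.1 with a lower level was reached by 13 of the 37 genes, against 2.6% of all genes tested, and 5.58% of all genes reached it in either direction. By the Wald test of DESeq2 11 genes of the set passed the adjusted threshold, against 3.5% of all genes tested. By limma on log2(FPKM + 1) none of the set and 1 of all genes tested did, with 13 of the set lower at an unadjusted p under 0.05, against 7.3% of all genes tested.

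The log2 fold change of FGFBP1-CM over Vector-CM was below 0 for 32 of the 37 genes, against 49.3% of all genes tested, and for 27 of the 37 when scaled by library size alone (42.7%). Its median was -0.15 with a range from -0.62 for HMGCS1 to 0.49 for NR1H3, beside a median of 0.003 over all genes tested. The summed level of the 37 genes was 5924, 6134 and 6126 CPM in the Vector-CM libraries and 4481, 5589 and 4921 CPM in the FGFBP1-CM libraries. Every FGFBP1-CM library was below every Vector-CM library on this sum. The lowest was FGFBP1-CM replicate 1, the library that stood apart, but the other two were also below.

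**Figure D1:**
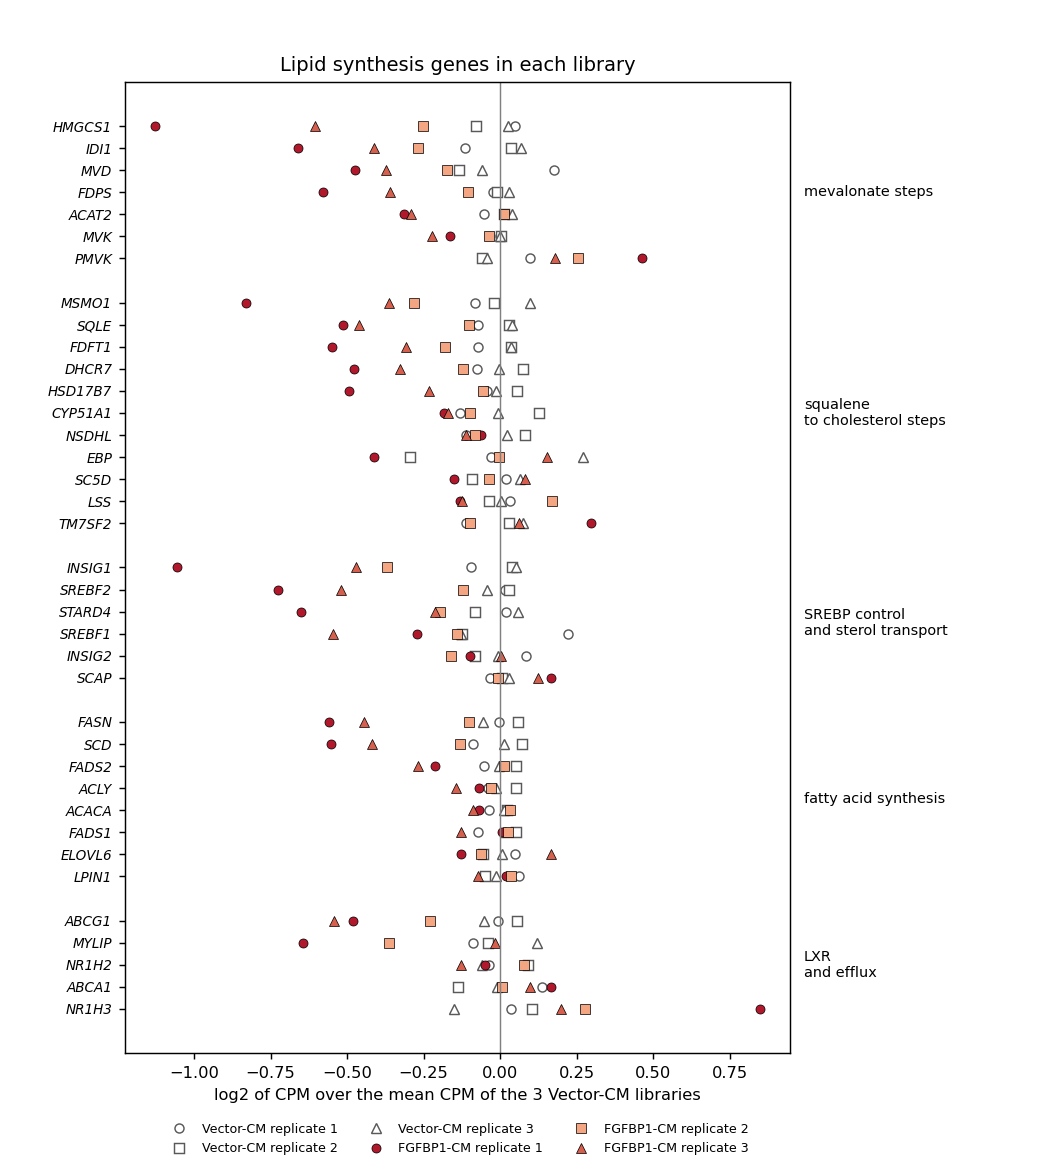
Level of each of the 37 genes in each library, as the log2 of its CPM over the mean CPM of the 3 Vector-CM libraries (horizontal axis), with genes grouped by role and ordered by log2 fold change within a group, where open symbols are Vector-CM and filled symbols FGFBP1-CM. The FGFBP1-CM symbols of HMGCS1, INSIG1 and MSMO1 lie to the left of all Vector-CM symbols, with replicate 1 farthest out, while for LPIN1, FADS1 and NR1H2 1 FGFBP1-CM symbol lies to the left of the Vector-CM symbols and the others lie among them.

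The mevalonate steps run from acetyl-CoA to farnesyl diphosphate, and 6 of the 7 genes were lower, 5 of them at an unadjusted p under 0.05. The median log2 fold change was -0.33. HMGCS1 (ENSG00000112972, chromosome 5, 43289395 to 43313512, minus strand) encodes HMG-CoA synthase, which joins acetyl-CoA to acetoacetyl-CoA ahead of mevalonate formation. Its level was 490, 449 and 483 CPM in Vector-CM replicates 1 to 3 and 217, 398 and 312 CPM in FGFBP1-CM replicates 1 to 3. All FGFBP1-CM libraries lay below all Vector-CM libraries, and replicate 1 was the lowest of them. The log2 fold change of HMGCS1 was -0.62 (SE 0.15, 95% interval -0.94 to -0.29, edgeR adjusted p = 0.0680), the lowest of the 37. With that library left out the value was -0.42 (edgeR adjusted p = 0.0424), and in DESeq2 the adjusted p was 0.112, with a range from 1.14e-14 to 0.248 over the alternatives.

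IDI1 (ENSG00000067064, chromosome 10, 1039152 to 1049170, minus strand) encodes the isomerase that interconverts isopentenyl and dimethylallyl diphosphate. It was measured at 118, 131 and 134 CPM in Vector-CM and at 80.8, 106 and 95.9 CPM in FGFBP1-CM. The groups did not overlap, and the log2 fold change was -0.44 (SE 0.0910, edgeR adjusted p = 0.0568). MVD, the decarboxylase that makes isopentenyl diphosphate, stood at 55.8, 44.9 and 47.3 CPM and at 35.5, 43.7 and 38.1 CPM in the same order of groups. Only a small gap separated the lowest Vector-CM library from the highest FGFBP1-CM library of MVD, and its log2 fold change was -0.34 (SE 0.0975, edgeR adjusted p = 0.0910). FDPS, which assembles farnesyl diphosphate, was at 108, 109 and 112 CPM in Vector-CM and at 73.4, 102 and 85.5 CPM in FGFBP1-CM. Its Vector-CM libraries were close together and above every FGFBP1-CM library, with a log2 fold change of -0.33 (SE 0.0969, edgeR adjusted p = 0.0933), which was -0.22 without FGFBP1-CM replicate 1.

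The other 3 genes of these steps differed less or in the other direction. ACAT2, the cytosolic thiolase that supplies acetoacetyl-CoA, had a log2 fold change of -0.19 (95% interval -0.37 to -0.01), and its groups overlapped because FGFBP1-CM replicate 2 was at the Vector-CM level. Without that library the value was -0.30. MVK, mevalonate kinase, had a log2 fold change of -0.14 (95% interval -0.32 to 0.04), and Vector-CM libraries of 25.3 to 25.4 CPM lay above FGFBP1-CM libraries of 21.7 to 24.7 CPM. PMVK, the phosphomevalonate kinase that acts between MVK and MVD, was the exception. It was at 10.4, 9.33 and 9.43 CPM in Vector-CM and at 13.4, 11.6 and 11 CPM in FGFBP1-CM, with a log2 fold change of 0.30 (95% interval 0.05 to 0.56, edgeR adjusted p = 0.167).

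From squalene to cholesterol, 10 of the 11 genes were lower (LSS was at 0.01 when scaled by library size alone) and 5 were so at an unadjusted p under 0.05, with a median log2 fold change of -0.15. MSMO1 (ENSG00000052802, chromosome 4, 165327623 to 165343160, plus strand) encodes the sterol methyl oxidase that removes methyl groups from the sterol ring. Its level was 341, 356 and 386 CPM in Vector-CM and 203, 297 and 281 CPM in FGFBP1-CM. The groups did not overlap, and the log2 fold change was -0.47 (SE 0.113, edgeR adjusted p = 0.0658). FDFT1, squalene synthase and the point where carbon is committed to sterols, was at 153, 165 and 165 CPM in Vector-CM and at 110, 142 and 130 CPM in FGFBP1-CM. SQLE, squalene epoxidase, was at 148, 159 and 160 CPM and at 109, 145 and 113 CPM. Both genes were lower in every FGFBP1-CM library, with FGFBP1-CM replicate 2 of SQLE only just below the lowest Vector-CM library. Their log2 fold changes were -0.33 for FDFT1 (SE 0.0852, edgeR adjusted p = 0.0747) and -0.35 for SQLE (SE 0.0947, edgeR adjusted p = 0.0822).

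DHCR7, a reductase of the final steps, was at 156, 173 and 164 CPM in Vector-CM and at 118, 151 and 131 CPM in FGFBP1-CM. The groups did not overlap, with a log2 fold change of -0.30 (SE 0.0855, edgeR adjusted p = 0.0903). HSD17B7, a ketosteroid reductase of the demethylation steps, had a log2 fold change of -0.25 (95% interval -0.46 to -0.04), which was -0.14 without FGFBP1-CM replicate 1. A pseudogene of it, HSD17B7P2, held 379 counts beside 3739 counts of the gene itself.

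The remaining 6 genes had intervals that include 0. CYP51A1, the lanosterol demethylase, had a log2 fold change of -0.15 (95% interval -0.34 to 0.05), and 2844 of its 3584 exon bases are shared with a readthrough gene on the same strand, so its counts are uncertain. NSDHL, the sterol dehydrogenase, was at -0.08 (-0.23 to 0.06), and EBP, the sterol isomerase, was at -0.08 (-0.54 to 0.39) on 34 to 55 counts per library. SC5D, the sterol desaturase, was at -0.04 (-0.20 to 0.13), and LSS, the cyclase that forms lanosterol from squalene epoxide, was at -0.03 (-0.21 to 0.16). TM7SF2, a sterol reductase, was at 0.11 (-0.19 to 0.40). LSS lies between SQLE and MSMO1 in the pathway, and its FGFBP1-CM libraries of 53.7, 66.2 and 54.0 CPM lay on both sides of the Vector-CM libraries of 57.4 to 60.2 CPM. The 95% interval of SQLE, -0.56 to -0.15, overlapped that of LSS, and the difference between the genes was not tested.

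**Figure D2:**
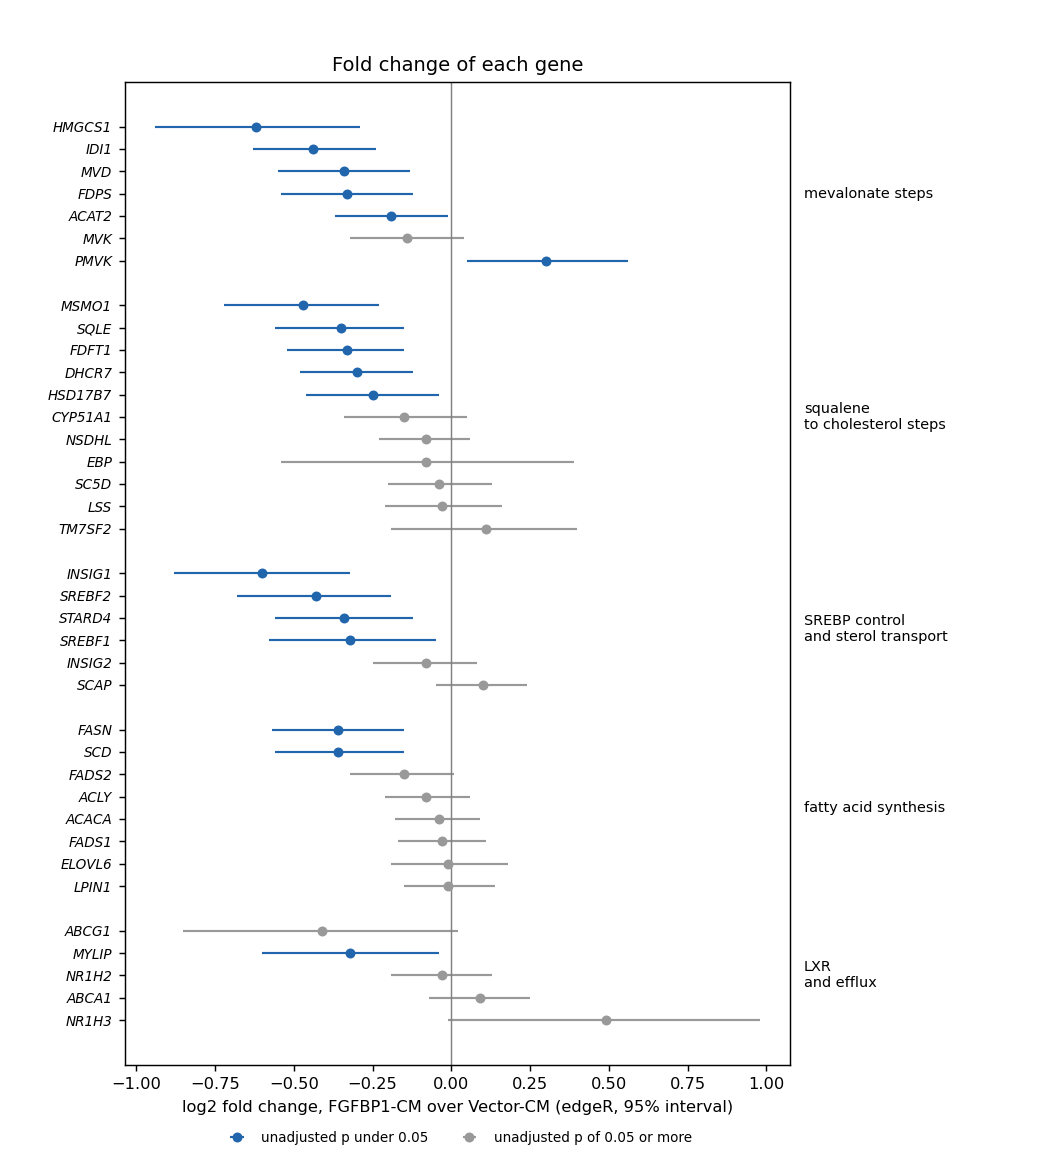
Log2 fold change of FGFBP1-CM over Vector-CM with its 95% interval from edgeR (horizontal axis) for the 37 genes grouped by role, where blue marks an unadjusted p under 0.05 and grey one of 0.05 or more. The blue intervals lie below 0 for 17 genes and above 0 for PMVK, and the interval of NR1H3 is the widest at the right, from -0.01 to 0.98.

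Genes that control SREBP activity and carry sterols were lower in 5 of 6 cases, 4 of them at an unadjusted p under 0.05, with a median log2 fold change of -0.33. INSIG1 (ENSG00000186480, chromosome 7, 155297776 to 155310235, plus strand) is itself an SREBP target and retains SCAP in the endoplasmic reticulum. Its level was 321, 352 and 355 CPM in Vector-CM and 165, 265 and 247 CPM in FGFBP1-CM. Every FGFBP1-CM library was below every Vector-CM library. The log2 fold change of INSIG1 was -0.60 (SE 0.129, 95% interval -0.88 to -0.32, edgeR adjusted p = 0.0568). Without FGFBP1-CM replicate 1, INSIG1 passed the threshold with a log2 fold change of -0.42 (edgeR adjusted p = 0.0166), and in DESeq2 the adjusted p was 0.0538, with a range from 2.21e-13 to 0.242 over the alternatives. INSIG2, which has the same function but is not known as an SREBP target, was at 52.4, 46.6 and 49.1 CPM in Vector-CM and at 46.1, 44.2 and 49.5 CPM in FGFBP1-CM. The groups of INSIG2 overlapped, with a log2 fold change of -0.08 (95% interval -0.25 to 0.08), and the intervals of INSIG1 and INSIG2 did not meet, although the difference between the genes was not tested.

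SREBF2 (ENSG00000198911, chromosome 22, 41833079 to 41907308, plus strand) encodes SREBP2. It was at 326, 329 and 313 CPM in Vector-CM and at 195, 297 and 225 CPM in FGFBP1-CM. The Vector-CM libraries were close together and above the 3 FGFBP1-CM libraries, and the log2 fold change was -0.43 (SE 0.115, edgeR adjusted p = 0.0793). SREBF1, which encodes SREBP1, was at 28.6, 22.5 and 22.4 CPM and at 20.3, 22.2 and 16.8 CPM. FGFBP1-CM replicate 2 of SREBF1 was only just below the Vector-CM replicates 2 and 3, and the log2 fold change was -0.32 (SE 0.123, edgeR adjusted p = 0.164). It was -0.18 without Vector-CM replicate 1, the highest library, and -0.21 without FGFBP1-CM replicate 3, the lowest. STARD4, a cytosolic sterol carrier and an SREBP target, was at 296, 276 and 304 CPM in Vector-CM and at 186, 255 and 252 CPM in FGFBP1-CM. Its groups did not overlap, with a log2 fold change of -0.34 (SE 0.101, edgeR adjusted p = 0.0980), which was -0.20 without FGFBP1-CM replicate 1. SCAP, the SREBP escort, was at 73.5 to 76.7 CPM and at 74.8 to 84.5 CPM, with a log2 fold change of 0.10 (95% interval -0.05 to 0.24).

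All 8 genes of fatty acid synthesis had a log2 fold change below 0 (ELOVL6, FADS1 and LPIN1 were above 0 when scaled by library size alone), but the median was -0.06 and 2 of the 8 had an unadjusted p under 0.05. These were SCD and FASN. SCD (ENSG00000099194, chromosome 10, 100347124 to 100364834, plus strand) encodes the desaturase that makes oleic acid. Its level was 920, 1026 and 986 CPM in Vector-CM and 667, 892 and 732 CPM in FGFBP1-CM. The groups did not overlap, and the log2 fold change was -0.36 (SE 0.0944, edgeR adjusted p = 0.0785). FASN, fatty acid synthase, was at 289, 302 and 279 CPM and at 197, 270 and 213 CPM. The FGFBP1-CM libraries of FASN were all lower, with a log2 fold change of -0.36 (SE 0.0969, edgeR adjusted p = 0.0839).

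The enzymes that feed FASN with substrate showed smaller differences. ACLY, which makes cytosolic acetyl-CoA from citrate, was at 562, 598 and 572 CPM in Vector-CM and at 551, 566 and 523 CPM in FGFBP1-CM. The groups overlapped, and the log2 fold change was -0.08 (95% interval -0.21 to 0.06). ACACA, the acetyl-CoA carboxylase, was at -0.04 (95% interval -0.18 to 0.09) on the log2 scale. FADS2, the first desaturase of polyunsaturated fatty acids, was at 266, 286 and 275 CPM and at 238, 278 and 229 CPM. FGFBP1-CM replicate 2 lay within the Vector-CM libraries and the other two below them, with a log2 fold change of -0.15 (95% interval -0.32 to 0.01, edgeR adjusted p = 0.272), which was -0.24 without replicate 2 and -0.10 without replicate 3. FADS1, the neighbouring desaturase on chromosome 11, was at -0.03 (-0.17 to 0.11), and FADS1 and FADS2 share 490 exon bases on opposite strands. ELOVL6, a fatty acid elongase, was at -0.01 (-0.19 to 0.18), and LPIN1, a phosphatidate phosphatase, was at -0.01 (-0.15 to 0.14).

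The LXR and efflux genes had no common direction, with 3 of 5 lower (NR1H2 was above 0 when scaled by library size alone) and a median log2 fold change of -0.03. ABCA1, the membrane pump that loads cholesterol onto apolipoproteins and the highest of the group per transcript length, was at 185, 153 and 167 CPM in Vector-CM and at 189, 169 and 180 CPM in FGFBP1-CM. The groups overlapped, with a log2 fold change of 0.09 (95% interval -0.07 to 0.25). ABCG1, a second efflux pump, was at 2.57, 2.68 and 2.49 CPM and at 1.85, 2.20 and 1.77 CPM. Its groups did not overlap, but the counts were low and the log2 fold change of -0.41 had an interval from -0.85 to 0.02. NR1H3, which encodes LXR alpha, was at 2.07, 2.17 and 1.82 CPM in Vector-CM and at 3.64, 2.45 and 2.32 CPM in FGFBP1-CM. All 3 FGFBP1-CM libraries of NR1H3 were higher, by a log2 fold change of 0.49 (95% interval -0.01 to 0.98), which was 0.24 without FGFBP1-CM replicate 1. NR1H2, which encodes LXR beta, was at -0.03 (-0.19 to 0.13). MYLIP, a ubiquitin ligase induced by LXRs, was at 30.1, 31.2 and 34.8 CPM and at 20.5, 24.9 and 31.7 CPM. FGFBP1-CM replicate 3 of MYLIP lay within the Vector-CM libraries, and the log2 fold change was -0.32 (95% interval -0.60 to -0.04, edgeR adjusted p = 0.175). It was -0.17 without FGFBP1-CM replicate 1 and -0.50 without replicate 3. ABCA1, ABCG1 and MYLIP, the 3 LXR targets of this role group, thus had 1 value above 0 and 2 below. Other LXR targets are given below with the genes beside the set.

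**Figure D3:**
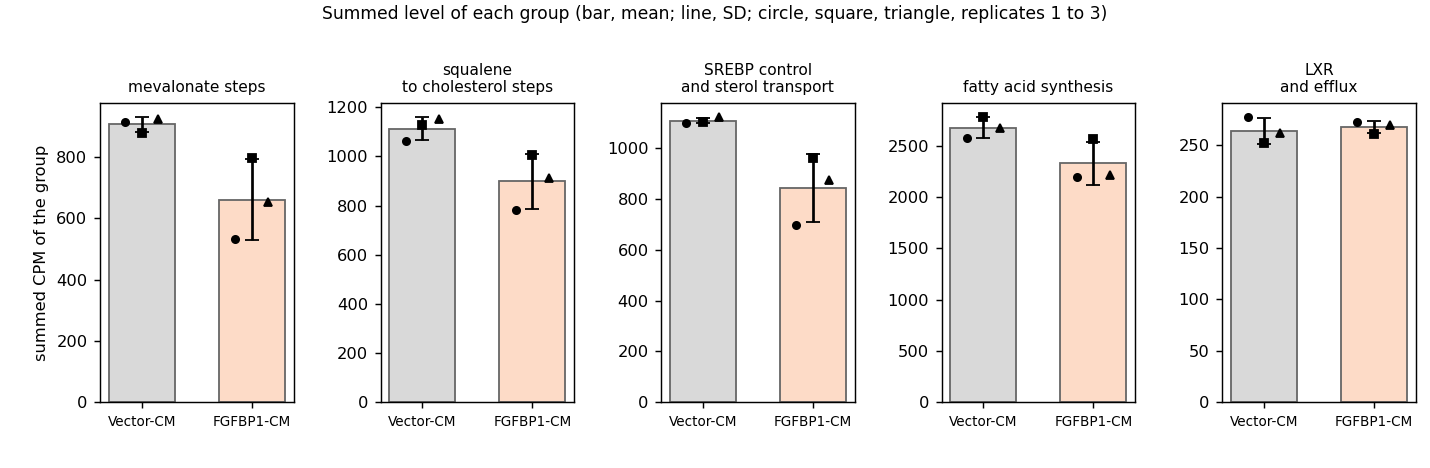
Summed CPM of the genes of each role group in Vector-CM and FGFBP1-CM (vertical axes, each from 0), where bars are means, lines are SD (n = 3) and symbols are the libraries. FGFBP1-CM libraries lie below Vector-CM libraries for the mevalonate steps, the squalene to cholesterol steps, SREBP control and fatty acid synthesis, and among them for LXR and efflux.

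Summed over role groups, the mevalonate genes were at 913, 879 and 924 CPM in Vector-CM and at 531, 797 and 654 CPM in FGFBP1-CM, a ratio of the means of 0.730. The squalene to cholesterol genes were at 1061, 1127 and 1150 CPM and at 782, 1004 and 910 CPM, with a ratio of 0.808. In both groups of sterol enzymes the FGFBP1-CM libraries had the same order, replicate 1 lowest and replicate 2 highest. For SREBP control and sterol transport the sums were 1098, 1101 and 1119 CPM and 697, 959 and 872 CPM (ratio 0.762). Fatty acid synthesis summed to 2576, 2776 and 2670 CPM and to 2198, 2568 and 2216 CPM (ratio 0.870), and LXR and efflux to 277, 252 and 262 CPM and to 272, 261 and 269 CPM (ratio 1.01). SCD and ACLY make up most of the fatty acid sum, and FGFBP1-CM replicate 2 came within a few CPM of the lowest Vector-CM library there.

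The 3 FGFBP1-CM libraries differed among themselves more than the Vector-CM libraries did. Among the 17 genes that were lower at an unadjusted p under 0.05, the median coefficient of variation was 4.86% in Vector-CM and 16.2% in FGFBP1-CM, against 7.38% and 9.64% over all genes tested. For these 17 genes the median level was 67.8% of the Vector-CM mean in FGFBP1-CM replicate 1, 90.7% in replicate 2 and 77.3% in replicate 3. FGFBP1-CM replicate 1 was the lowest of its group for 16 of the 17 and replicate 2 the highest for 16 of the 17. The order replicate 1, replicate 3, replicate 2 held for 15 of the 17 and for 18.3% of all genes tested. These 17 genes were picked with the same libraries, so the order is a description. Over the whole set, FGFBP1-CM replicates 1, 2 and 3 were below all 3 Vector-CM libraries for 28, 20 and 27 of the 37 genes, against 34.9%, 27.7% and 30.7% of all genes tested.

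Leaving out single FGFBP1-CM libraries moved the number of genes past the adjusted threshold. It was 2 (HMGCS1 and INSIG1) without replicate 1, where 0.421% of all genes tested passed. Without replicate 2 it was 15, where 5.15% of all genes passed, and without replicate 3 it was 4 (IDI1, MSMO1, INSIG1 and MYLIP), where 2.34% did. It was 0 with any Vector-CM replicate left out, where 0.0232% to 0.0351% of all genes passed. The number of genes lower at an unadjusted p under 0.05 moved less, to 14 without FGFBP1-CM replicate 1 (6.91% of all genes tested), 18 without replicate 2 (11.9%) and 15 without replicate 3 (10.6%). The median log2 fold change of the 18 sterol synthesis enzymes was -0.22, and it was -0.13 without replicate 1 and -0.33 without replicate 2.

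Per transcript length (FPKM, fragments scaled by gene length and library size), the 37 genes spanned a wide range in LX-2 cells. SCD had the highest level, 183.8 ± 9.27 FPKM (SD, n = 3) in Vector-CM and 146.7 ± 20.6 FPKM in FGFBP1-CM. MSMO1 was at 124.8 ± 6.70 and 91.9 ± 16.7 FPKM and ACLY at 109.3 ± 3.50 and 106.0 ± 4.24 FPKM, so that MSMO1 was above ACLY in all Vector-CM libraries and below it in all FGFBP1-CM libraries. Next were INSIG1 at 92.5 ± 4.31 and 62.3 ± 13.9 FPKM and HMGCS1 at 70.5 ± 3.36 and 46.9 ± 13.2 FPKM. The ranges over the 6 libraries overlapped between INSIG1 and STARD4 and between HMGCS1 and ACAT2, the next genes of their groups, and did not overlap between SCD and ACLY or between MSMO1 and NSDHL. Of the SREBP genes SREBF2 was at 42.1 ± 1.51 and 31.9 ± 6.64 FPKM and SREBF1 at 2.94 ± 0.449 and 2.42 ± 0.335 FPKM, so SREBF2 was the higher of the pair in every library. The lowest were NR1H3 at 0.439 ± 0.0424 and 0.625 ± 0.171 FPKM and ABCG1 at 0.415 ± 0.0173 and 0.319 ± 0.0346 FPKM.

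**Figure D4:**
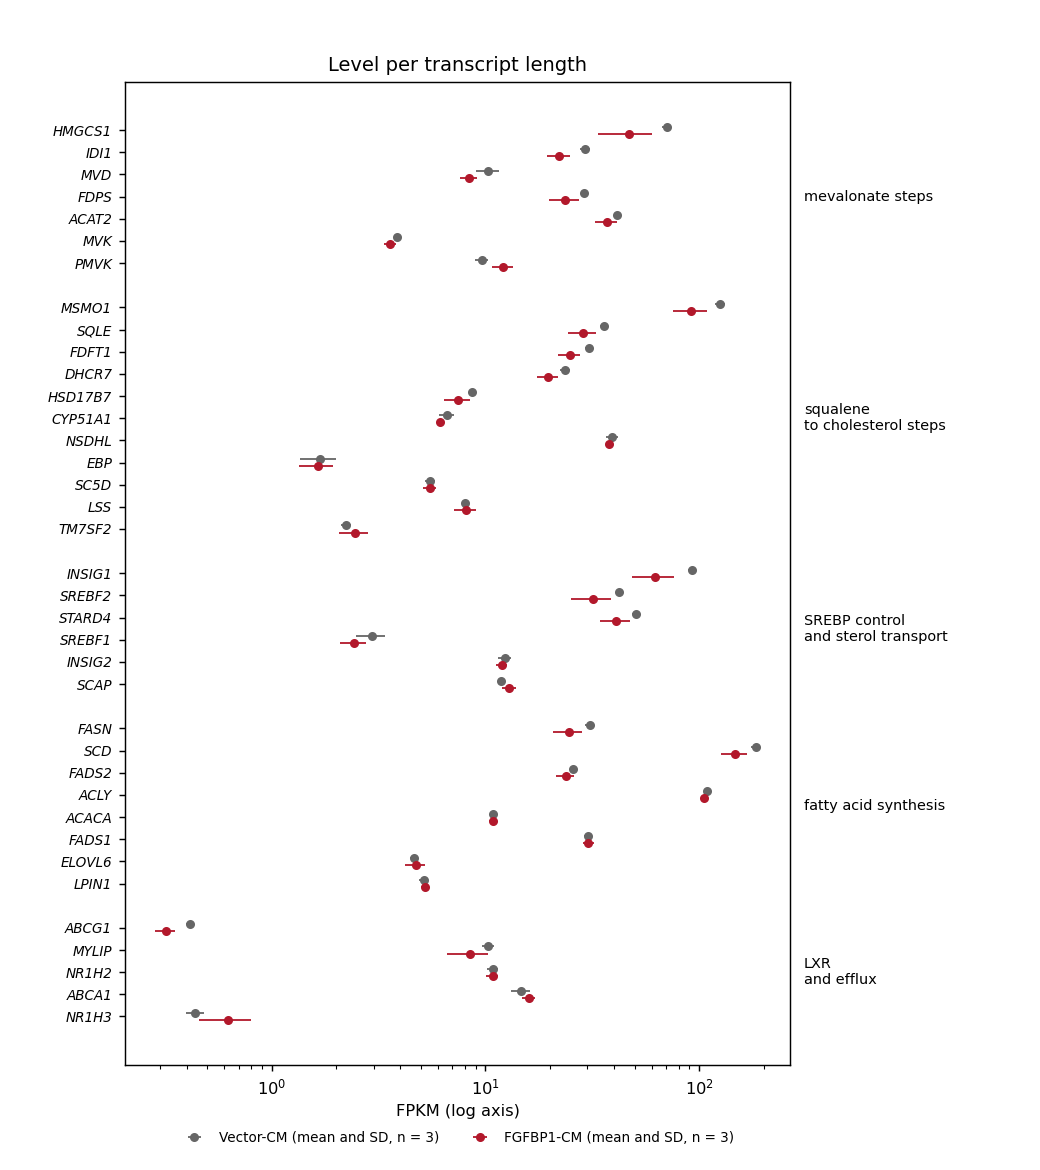
Level per transcript length of the 37 genes in FPKM (log axis), with mean and SD of 3 libraries for Vector-CM (grey) and FGFBP1-CM (red), grouped by role. SCD, MSMO1 and ACLY are highest, at about or above 100 FPKM in Vector-CM, and NR1H3 and ABCG1 are below 1 FPKM.

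Genes beside the set in the same pathways were measured for comparison, and were also chosen with earlier results of these data known. Of 75 such genes 69 had enough counts to be tested, and 8 of these (11.6%) were lower and 5 higher at an unadjusted p under 0.05, against 10.7% and 11.1% of all genes tested. None passed the adjusted threshold in edgeR, 3 did in DESeq2 and none in limma, and the median log2 fold change was -0.02. The isoprenoid branch, which takes farnesyl diphosphate to dolichol, ubiquinone and protein prenylation, had 0 lower and 1 higher at that p among the 9 genes listed. This was DHDDS, a subunit of the enzyme that makes dolichol, at 27.4, 32.0 and 26.7 CPM in Vector-CM and at 44.7, 37.7 and 33.0 CPM in FGFBP1-CM (log2 fold change 0.43, SE 0.110, edgeR adjusted p = 0.0747). PDSS1, of ubiquinone synthesis, was at 0.32 on the same scale with overlapping groups.

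SREBP processing and sterol-regulated degradation had 2 of 9 genes higher and none lower at an unadjusted p under 0.05. SPRING1, which acts on SREBP maturation, was at 66.3, 70.9 and 69.1 CPM in Vector-CM and at 102, 78.4 and 77.5 CPM in FGFBP1-CM, a log2 fold change of 0.33 (SE 0.0970, edgeR adjusted p = 0.0962). MBTPS2, the protease that makes the second cut in SREBPs, was at 70.5, 73.9 and 71.4 CPM and at 88.2, 80.5 and 82.3 CPM, a log2 fold change of 0.22 (SE 0.0655, edgeR adjusted p = 0.0968). Both had groups that did not overlap and were higher in FGFBP1-CM, where SREBF2 and INSIG1 were lower.

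Cholesterol uptake, storage and transport had 3 of 11 tested genes lower at that p (NPC1, NCEH1 and SCARB1) and 1 higher (SOAT1). NCEH1, a cholesteryl ester hydrolase, had a log2 fold change of -0.25 (edgeR adjusted p = 0.102), and SCARB1, the high-density lipoprotein receptor, one of -0.33 (edgeR adjusted p = 0.105). SOAT1, which esterifies cholesterol for storage, had a log2 fold change of 0.19 (edgeR adjusted p = 0.151). Of acetyl-CoA and NADPH supply, SLC25A1, the mitochondrial citrate carrier that provides the substrate of ACLY, was at 77.4, 78.6 and 77.5 CPM in Vector-CM and at 60.1, 69.4 and 60.1 CPM in FGFBP1-CM (log2 fold change -0.30, SE 0.0723, edgeR adjusted p = 0.0680). Its groups did not overlap. ME1, malic enzyme, had a log2 fold change of 0.36 with overlapping groups.

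Fatty acid elongation, desaturation and activation had 2 of 19 genes lower at that p, ACSL3 (-0.16) and FADS3 (-0.19). Phosphatidate and triglyceride synthesis had 1 of 8, AGPAT2 (-0.24), while DGAT2, the final acyltransferase, was at -0.14. Of oxysterol synthesis and other LXR targets 5 of 10 genes were tested and 1 was lower at that p, PLTP (-0.27), while LPCAT3 was at 0.11. CH25H, CYP7B1, ABCG5, ABCG8 and LPL, with SOAT2 of the storage genes, did not have enough counts.

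**Figure D5:**
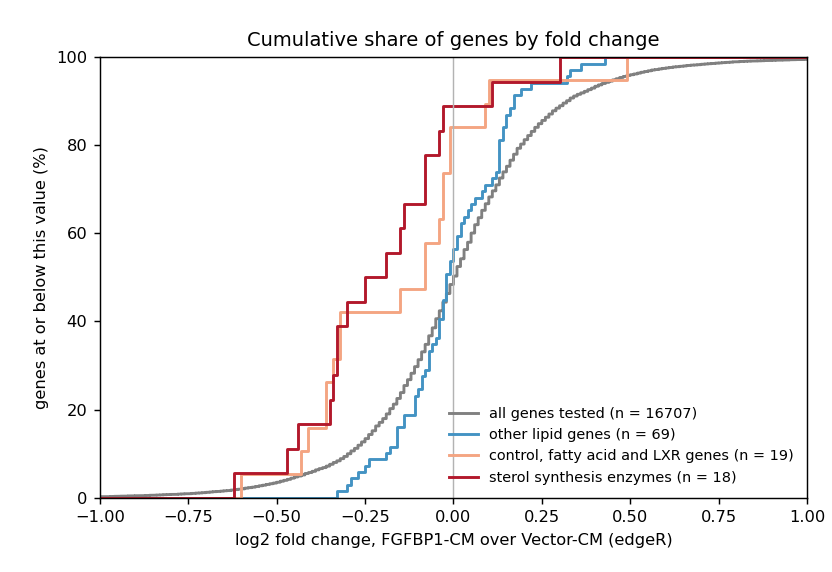
Cumulative share of genes (vertical axis, %) at or below a log2 fold change of FGFBP1-CM over Vector-CM (horizontal axis) for all 16707 genes tested, 69 other lipid genes, the 19 control, fatty acid and LXR genes and the 18 sterol synthesis enzymes. The curve of the sterol synthesis enzymes lies to the left, with a median of -0.22, while that of the other lipid genes crosses the middle near -0.02.

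The promoters shown above can be set beside these differences. Of the 17 genes lower at an unadjusted p under 0.05, 13 had a RefSeq promoter and 11 of these held a CCAAT box (84.6%), against 7 of the 19 other promoters of the set (36.8%) and 33.0% of all promoters. HMGCS1, MSMO1, INSIG1, SREBF2 and SCD all held at least 1 CCAAT box. This contrast cannot be told apart from role, because 12 of the 15 matched sterol synthesis enzymes held a CCAAT box (80%). The sterol enzymes without one were IDI1, which was lower, and PMVK and CYP51A1, which were not. MVK, LSS, TM7SF2, NSDHL, EBP, SC5D and ACLY held a CCAAT box too and had intervals that include 0. IDI1 and SREBF1 held none and had intervals below 0. The window of IDI1 is that of a RefSeq start 7534 bases before the outermost GENCODE start, so it does not cover the start of the gene as located above. The RefSeq starts of DHCR7, SCAP, ACLY, FADS1, FADS2, LPIN1 and NR1H2 were also over 1000 bases from the GENCODE start. All of these but DHCR7 are among the other promoters. The promoters of the set were rich in G and C (51.6% to 81.6%). The transcripts of the 37 genes had a median GC content of 50.2%, those of the 17 lower genes 47.1%, and all genes tested 47.7%. Log2 fold change and GC content were related across all genes tested (Spearman's rho -0.206 across 16401 genes, which are not independent replicates), and after a correction for GC content and length 5 genes of the set passed the adjusted threshold (HMGCS1, IDI1, MSMO1, INSIG1 and STARD4), where 0.841% of all genes tested did.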

How the data were processed

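RNA sequencing data were available for 6 libraries of LX-2 cells, 3 per group, grouped by their labels. Paired-end reads had been aligned by the authors with HISAT2 2.0.5 and counted per gene with featureCounts 1.5.0-p3, and the deposited table holds raw counts and FPKM values that the authors computed from the counts and gene lengths. The submitters' processing notes list the tools HISAT2, featureCounts, DESeq2 1.16.1 and edgeR and the build hg18, the methods name no build, annotation or strand setting, and the methods describe poly(A) selection as well as depletion of ribosomal RNA. Without strand, reads of overlapping antisense genes cannot be told apart. Among others of the set, this touches ACAT2, HMGCS1, FDPS and IDI1. Their largest overlap with a gene on the opposite strand was 1458 of 4299, 703 of 4702, 693 of 3718 and 643 of 4345 exon bases. Coordinates of genes are those of GENCODE release 29 (GRCh38), matched by Ensembl identifier for 96.3% of 60605 identifiers, which may differ from the build behind the counts. Another 175 of the 60780 rows carried identifiers of the authors' own.

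The deposited counts were fitted in edgeR 4.0.16 under R 4.3.3 (filterByExpr, TMM, quasi-likelihood F-test) over 16707 genes, with Benjamini-Hochberg adjustment and a threshold of 0.05. CPM values are counts relative to TMM-scaled library sizes. All 37 genes are named. Values in each library are given for the 4 genes of each role group with the smallest p and for the one with the highest FPKM, and also for INSIG2, PMVK and LSS and ranges of a few others, chosen after their values were seen. Of each list of other genes in the same pathways (companion genes) the 2 genes with the smallest p are named, and NPC1 and SOAT1 were added after their values were seen. The genes and lists were chosen with earlier results of these data known. No test was made over a list of genes.

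Other settings tried were scaling by RLE or by library size alone, no filter, a mean of at least 1 CPM, DESeq2 1.42.0, limma 3.58.1 on log2(FPKM + 1) and log2(FPKM + 0.1), a replicate block, a loess correction (span 0.3) for GC content and length (known for 98.2% of tested genes), and leaving out each library. In 5 simulated draws of the 16707 genes, with 200 changed 2-fold, the edgeR test recovered 81.5% of changed genes, and 5.66% of calls were false. The log2 fold changes of the set, from -0.62 to 0.49, were all smaller than 2-fold. Recovery of changes of that size was not simulated, so the 81.5% does not apply to them. With 3 against 3 an exact permutation test cannot go below 0.1, and none was used. Replicates differed by more than sampling noise (chi-square per degree of freedom 2.88 to 10.2), and none were merged.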

Additional observations from a re-analysis of the deposited data

How the results depend on the processing

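Every result was recomputed under 16 alternatives. Of 592 gene values, 497 kept their direction and their side of the adjusted threshold, 60 passed it with the same direction and 35 changed sign, and 29 of the 37 genes never changed sign. The number of genes of the set past the adjusted threshold, 0, became 14 without a filter on low counts (where the prior degrees of freedom were infinite), 11 in DESeq2, 5 with the GC and length correction and 0 to 15 when a library was left out. The number higher at an unadjusted p under 0.05, 1, was 2 with library size only or no filter, 3 with the GC and length correction and 0 to 2 with a library left out. The cause was not tested. The median of the set, -0.15, ranged from -0.24 to -0.13 with a library left out.

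Replicate numbers did not pair the libraries (correlations of deviations -0.0894, -0.0274 and 0.106). With the replicate block 4 genes of the set passed the adjusted threshold (IDI1, MSMO1, INSIG1 and SCD), and 5 with the GC correction and the replicate block together (then 3 higher at an unadjusted p under 0.05). Over all genes, 90 passed with the block and 61 with both.

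Over all genes, 20 passed the adjusted threshold, against 38 with RLE scaling, 1382 without a filter, 11 at a mean of at least 1 CPM, 585 in DESeq2, 1 in limma with either pseudocount, 138 with the GC and length correction and 4 to 883 with a library left out. Among the companion genes, 4 passed without a filter, 3 in DESeq2 and 0 to 3 with a library left out, and 8 to 15 had an unadjusted p under 0.05 with a library left out, against 13. Their median of -0.02 was 0.02 when scaled by library size alone, in limma 0.01 with a pseudocount of 1 FPKM and 0.02 with 0.1 FPKM, -0.04 with the GC and length correction, -0.05 with the block added, and -0.04 to 0.01 with a library left out.

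Sign changes were confined to 8 genes near 0. With library size only the values were 0.01 for LSS, 0.03 for ELOVL6, 0.0046 for FADS1, 0.03 for LPIN1 and 0.00276 for NR1H2. Without a filter ELOVL6 and LPIN1 were at 0.01. In limma with a pseudocount of 1 FPKM LSS was at 0.00374, ELOVL6 at 0.02, FADS1 at 0.00296, LPIN1 at 0.02 and NR1H2 at 0.00123, and with 0.1 FPKM they were at 0.00363, 0.02, 0.00302, 0.03 and 0.00129. LSS and NR1H2 were at 0.01 with the GC and length correction, with and without the block. With a library left out, EBP ranged from -0.21 to 0.08, ELOVL6 from -0.10 to 0.06, FADS1 from -0.06 to 0.02, LPIN1 from -0.03 to 0.03, LSS from -0.13 to 0.03, NR1H2 from -0.09 to 0.02, SC5D from -0.10 to 0.02 and TM7SF2 from -0.01 to 0.19. Depth limits EBP, ABCG1 and NR1H3, which had few counts.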
